A study of Triticum aestivum with 24 samples.

Results

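Wheat line Molly, sampled 12 h after Hessian fly eggs hatched, was compared with uninfested Molly sampled at 12 h. The members are 6 of the 24 arrays of the series: 3 of Molly sheaths carrying larvae, labelled as biological replicates, and 3 of Molly sheaths without larvae, which the labels only number. Both groups hold H13, the resistance gene of Molly, and the labels call the meeting of Molly and larvae incompatible. Seedlings were infested with eggs at the 2-leaf stage, and total RNA came from the stretch of the second leaf sheath where larvae feed, hybridised to Affymetrix wheat arrays. The other arrays used here, 3 per group, are infested Molly at 6 and 24 h, and Newton, a susceptible line with a compatible interaction, infested and uninfested at 12 h. Whether the uninfested arrays stem from different plants is not stated, so the spread behind each p-value may be technical. The tissue is bulk sheath, in which fewer cells of a type and less RNA per cell cannot be told apart.

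The Hessian fly is a gall midge whose newly hatched larvae move down to the base of the sheath, feed from the plant surface and deliver salivary proteins into the cells beneath. In a susceptible wheat plant the attacked cells turn into a tissue that feeds the larvae and the seedling is stunted. In a plant with a matching resistance gene the larvae die early and the plant goes on growing.

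Signal is MAS5 intensity in linear units, scaled by the authors so that the trimmed mean of every array is the same. On the 6 arrays the median signal of all probe sets lay between 79.9 and 92.3. Log2 signal correlated at 0.969 to 0.972 within infested, 0.967 to 0.971 within uninfested and 0.890 to 0.914 between infested and uninfested arrays, a description over the 36707 tested wheat probe sets. The array's tag controls detect no wheat RNA and here read 17.2 at the median and 85.0 at most. Where the dimmer group's geometric mean lay at or under 85.0, the brighter group was divided by 85.0 and the change is written "at least". A probe set "rose" or "fell" where limma's two-sided test over all 24 arrays gave a Benjamini-Hochberg adjusted p under 0.05. The control probe set for 18S ribosomal RNA had signals of 1426, 1717 and 1458 on the infested arrays and 3943, 5090 and 6773 on the uninfested arrays, a log2 difference of -1.75 (exact permutation p = 0.1, the smallest that 3 against 3 arrays allow). The log2 ratio of 3' to 5' control signal differed by -0.81 for CYP86 and -0.40 for glucose-6-phosphate dehydrogenase (exact permutation p = 0.1 each), and the groups overlapped for the other 5 transcripts. These values moved with infestation, and their part in the results was not tested beyond a fit with 18S signal as a covariate. The 18S signals of infested and uninfested Molly did not overlap, so that fit cannot tell 18S signal and infestation apart. A call lost in it is given as a limit of the call, not as an effect of 18S signal.

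A large share of the measured transcripts differed between infested and uninfested Molly. Of 36707 tested probe sets 12514 changed (34.1%), with 6024 higher (16.4%) and 6490 lower (17.7%) in infested sheaths. The falls were smaller than the rises. By at least 2-fold, 2779 rose (7.57%) and 1496 fell (4.08%). By at least 8-fold, 497 rose and 14 fell, and of these 161 rises and 3 falls had both groups above the range of the tag controls. Falls were concentrated among bright probe sets. With the tested probe sets split into 4 equal classes by mean signal, 10.2% rose and 3.91% fell in the dimmest class, whereas 19.2% rose and 34.5% fell in the brightest. With each array centred on its median, the median log2 change of all tested probe sets was -0.13 in place of -0.01, and the rises made up 35.0% of 13462 calls in place of 48.1% of 12514. With no limit on dim signals the rises made up 50.3% of 12344 calls. With 18S signal as a covariate 6833 probe sets were called.

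**Figure D1:**
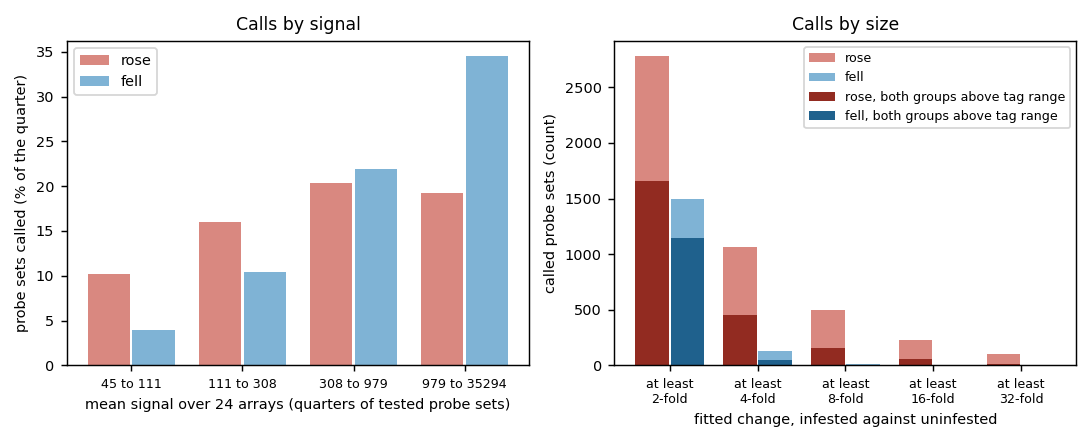
Left, the percentage of tested probe sets that rose and fell in infested Molly at 12 h, in 4 equal classes of mean signal (MAS5 units). Right, the number called with a fitted change of at least 2, 4, 8, 16 and 32-fold, dark where both groups were above the range of the tag controls. Falls reach 34.5% in the brightest class, and at 8-fold or more 497 probe sets rose and 14 fell.

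Only a small part of the array can be named. The array annotation paired 1273 probe sets with a gene, and 100 genes had a name that says what they are; 76 of those, with 132 probe sets, were bright enough to be tested. Of these probe sets 24 rose and 31 fell (41.7%, against 34.1% of all tested probe sets), and their median log2 change was -0.02 against -0.01 for all. By gene, 18 rose, 17 fell, 42 had no called probe set, and the histone gene wcH2A-3, counted among both the rises and the falls, had 1 probe set in each direction. The 3 infested arrays lay wholly above or below the 3 uninfested arrays for 74 of the 132 probe sets, while 48.1% of all tested probe sets showed such a separation.

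Green tissue markers ranged from dim to very bright, and markers of seed and anther were mostly dim. Of 36 probe sets of photosynthesis and Calvin cycle genes 18 passed the filter on dim signals. The brightest probe set of rbcl, the large subunit of the carbon-fixing enzyme Rubisco, had signals of 38418, 37391 and 37587 on infested and 37840, 35820 and 36027 on uninfested arrays. Of 21 probe sets of seed storage and anther genes, which leaf sheath should lack, 4 passed the filter on dim signals, and their log2 changes of -0.12 to 0.38 were not called (adjusted p = 0.18 to 0.81). One of them, for the avenin-like protein gene ALP, was bright in both groups, at 4054, 4007 and 4424 on infested and 4342, 4770 and 4453 on uninfested arrays.

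Among inhibitors of digestive and cell wall enzymes, XIP-I was the named gene with the largest rise. It encodes a xylanase inhibitor, a protein that blocks microbial enzymes which degrade xylan. One of its 2 probe sets had signals of 8676, 11139 and 7179 on infested arrays and 234, 363 and 190.1 on uninfested arrays, so the groups were far apart. The rise was 35.0-fold (log2 5.13, SE 0.52, adjusted p = 5.1e-07). The other gave 9597, 10921 and 8256 against 385, 382 and 285, a 27.4-fold rise (log2 4.78, SE 0.46, adjusted p = 2.8e-07). Of all tested probe sets 10 rose by at least 32-fold with both groups brighter than any tag control, among them the first of these XIP-I probe sets. WMAI-1, a monomeric inhibitor of alpha-amylase, rose from signals at the edge of detection, with 107, 78.6 and 90.6 on infested and 50.4, 30.5 and 43.6 on uninfested arrays, at least 1.08-fold (adjusted p = 0.025). This call was lost without infested replicate 1 or 3 or uninfested replicate 2 (adjusted p = 0.083, 0.054 and 0.11). The amylase and trypsin inhibitor gene ATI (log2 change -0.33, adjusted p = 0.47) and wci (0.29, adjusted p = 0.55) were not called. In all, 3 of 5 tested inhibitor probe sets rose, 2 of them of XIP-I, with a median of 1.17 over the list. Of all tested probe sets 16.4% rose.

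WZF1, a zinc-finger gene of the transcription factor list, rose 11.3-fold (log2 3.49, SE 0.39, adjusted p = 1.2e-06). Its signals were 1354, 1594 and 1131 on infested arrays and 119, 161 and 89.3 on uninfested arrays. Every infested array stood far above the uninfested ones. By at least 8-fold, 161 of all tested probe sets rose with both groups above the range of the tag controls, WZF1 among them.

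**Figure D2:**
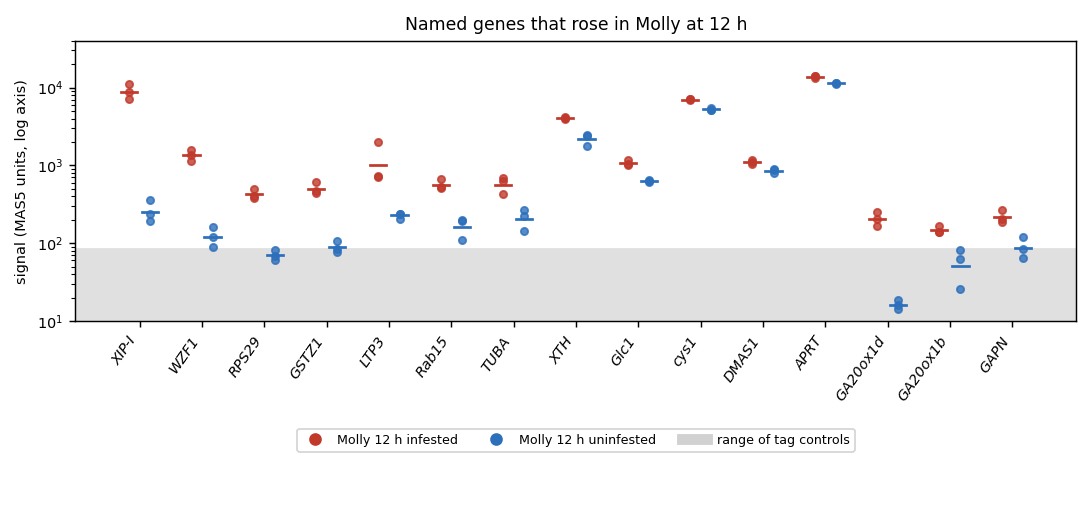
Signal (MAS5 units, log axis) of named genes that rose in infested Molly at 12 h, with each point 1 array, bars the geometric mean of 3 arrays and grey the range of the tag controls. The 12 genes named for the largest rises are followed by GA20ox1d, GA20ox1b and GAPN. XIP-I reaches 7179 to 11139 on infested arrays against 190 to 363 on uninfested arrays, and the uninfested arrays of RPS29 and of both GA20ox genes lie within the grey band.

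The gibberellin 20-oxidases, which catalyse late steps in the synthesis of the growth hormone gibberellin, had 3 tested probe sets, of which 2 rose (16.4% of all tested probe sets did). GA20ox1d gave 253, 205 and 167 on infested arrays, against 14.1, 15.9 and 18.6 on uninfested arrays. All 3 uninfested values lay near the tag controls, so the rise was at least 2.42-fold (adjusted p = 0.00026). GA20ox1b gave 168, 140.0 and 139.6 on infested arrays and 26.0, 81.5 and 62.9 on uninfested arrays, a rise of at least 1.75-fold (adjusted p = 0.0037), a call lost with 18S signal as a covariate (adjusted p = 0.11). GA20ox1a was dim in both groups and not called (adjusted p = 0.96). A further GA20ox1d probe set was left out by the filter on dim signals, which uses the mean over all 24 arrays. It gave 217, 171 and 152 on infested arrays and 15.7, 12.2 and 14.7 on uninfested arrays, at least 2.10-fold higher, and it was called when the filter was dropped (limma adjusted p = 1.5e-06).

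PR5, a thaumatin-like pathogenesis-related protein that marks defence responses in many plants, was left out by the same filter and is named here after its values were seen. It gave 178, 59.0 and 107 on infested arrays and 1.76, 1.37 and 7.18 on uninfested arrays. The groups did not overlap, infested replicate 2 was no brighter than the brightest tag control, and the level was at least 1.22-fold higher; without the filter the probe set was called (limma adjusted p = 0.00011). In Newton at 12 h the same probe set read 1.66, 2.32 and 4.80 on infested and 2.08, 3.27 and 4.15 on uninfested arrays, all far under the top of the tag range. Of the 65 named probe sets that the filter left out, 3 were called higher without it, those of PR5, GA20ox1d and the anther gene raftin1a, and 1 lower, that of the peroxidase gene PER1. WGA2, a wheat germ agglutinin and the lone tested member of the lectin and defence list, was not called (adjusted p = 0.12), with infested signals of 58.3, 21.1 and 153 against 79.7, 124 and 574.

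The peroxidase and detoxification list held 12 tested probe sets, of which 3 rose, all of GSTZ1, with a median of -0.03, where 16.4% of all tested probe sets rose. GSTZ1 encodes a zeta-class glutathione transferase, an enzyme family that acts in the breakdown of aromatic amino acids. Its most changed probe set gave 614, 464 and 447 on infested and 107, 83.3 and 77.8 on uninfested arrays, a 5.69-fold rise (log2 2.51, SE 0.30, adjusted p = 2.4e-06). The other GSTZ1 probe sets rose 3.22-fold (adjusted p = 5.1e-05) and at least 1.66-fold (adjusted p = 0.0085), and the last of these calls was lost without uninfested replicate 1 (adjusted p = 0.051). The 4 probe sets of the peroxiredoxin gene TaPrx1 were not called, with log2 changes of -0.62 to -0.04. The log2 change of PCS1, a phytochelatin synthase that makes metal-binding peptides, was 0.43 (adjusted p = 0.065). The catalase gene CAT1 read 111, 171 and 111 on infested and 194, 108 and 88.8 on uninfested arrays (adjusted p = 0.91).

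In the list of cell wall, lipid transfer and glucosidase genes, 4 of 5 tested probe sets rose (16.4% of all tested probe sets did), with a median of 0.89. The 3 infested arrays lay above the 3 uninfested arrays for all 5, as they did for 23.4% of all tested probe sets. LTP3, a lipid transfer protein of the kind that carries wax and cutin precursors to the surface, rose in both its probe sets. The dimmer one gave 700.1, 1993 and 726 on infested arrays and 241, 239.7 and 207 on uninfested arrays, a 4.40-fold rise (log2 2.14, SE 0.29, adjusted p = 1.1e-05). Infested replicate 2 stood above the other infested arrays here. The brighter gave 9340, 13587 and 10574 against 4361, 4253 and 3701, a 2.69-fold rise (log2 1.43, SE 0.17, adjusted p = 2e-06). XTH, a xyloglucan endotransglucosylase/hydrolase that cuts and rejoins wall polysaccharides, gave 3994, 4142 and 4060 on infested and 2398, 2423 and 1801 on uninfested arrays, a 1.86-fold rise (adjusted p = 0.001). Glc1 rose 1.71-fold, to 1021, 1162 and 1056 on infested arrays, against 606, 653 and 636 on uninfested arrays (adjusted p = 0.00035). TaGlu1a, a beta-glucosidase that releases the toxic hydroxamic acids of cereals from their glucosides, was among the brightest named genes and was not called, with signals of 28924, 29127 and 29492 against 27603, 25744 and 23860 (adjusted p = 0.11).

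The starch, fructan and sugar list had 2 rises among 9 tested probe sets, with a median of 0.29, a share of rises near the 16.4% of all tested probe sets. GAPN, whose enzyme oxidises glyceraldehyde-3-phosphate without phosphorylation and supplies cytosolic NADPH, gave 186, 204 and 269 on infested arrays and 119, 85.1 and 64.0 on uninfested arrays, a 2.51-fold rise (log2 1.33, adjusted p = 0.0011). The uninfested level lay close to the tag range. 6-FEH encodes an exohydrolase that breaks down stored fructan, and its called probe set rose at least 1.97-fold, with 151, 243 and 128 on infested and 85.3, 43.3 and 80.8 on uninfested arrays (adjusted p = 0.029). That call was lost without infested or uninfested replicate 2 (adjusted p = 0.14 each), under quantile normalization (0.058) and with 18S signal as a covariate (0.40). A second 6-FEH probe set read 165, 405 and 209 against 76.8, 93.8 and 108, with no overlap, and was not called (log2 change 1.39, adjusted p = 0.12). The third had a log2 change of 0.09 (adjusted p = 0.89). Neither probe set of AGA.1 was called, the dimmer having the larger log2 change (0.59, adjusted p = 0.15). Array controls outside the tested set also bear on sugar metabolism: the 3' probe set of sucrose synthase read 7917, 9406 and 7627 on infested and 3642, 5007 and 5034 on uninfested arrays, a log2 difference of 0.88 (exact permutation p = 0.1). The 3' probe set of glucose-6-phosphate dehydrogenase, which opens the oxidative pentose phosphate pathway, read 6302, 5836 and 5787 against 4124, 3920 and 3961 (log2 difference 0.58, exact permutation p = 0.1). Neither pair of groups overlapped, a separation that 48.1% of all tested probe sets showed.

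Among dehydrin, late embryogenesis and heat shock genes 2 of 5 tested probe sets rose, both of Rab15, where 16.4% of all tested probe sets rose. Rab15 is a dehydrin that responds to abscisic acid and dehydration. Its more changed probe set gave 513, 531 and 668 on infested and 199.9, 110.5 and 195 on uninfested arrays, a 3.48-fold rise (adjusted p = 0.0042), and the other rose 2.59-fold (adjusted p = 0.011). Both calls were lost with 18S signal as a covariate (adjusted p = 0.066 and 0.14), where the log2 changes were 1.88 and 1.32 in place of 1.80 and 1.38. FKBP70, an immunophilin with peptidyl-prolyl isomerase activity, read 7707, 7929 and 7486 on infested and 9274, 8920 and 9236 on uninfested arrays. The groups did not overlap, and the log2 change of -0.25 was not called (adjusted p = 0.20); it was called with arrays centred on their median (-0.36, adjusted p = 0.039).

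Genes in no list had 23 tested probe sets, of which 3 rose and 1 fell, with a median of 0.13 (16.4% of all tested probe sets rose and 17.7% fell). PIMT, a methyltransferase that repairs damaged aspartyl residues of proteins, read 62.2, 66.9 and 55.8 on infested and 17.4, 27.3 and 57.9 on uninfested arrays, all within the tag range. It was not called (adjusted p = 0.073), but was called without uninfested replicate 3 (adjusted p = 0.013). The 2 probe sets of cys1 rose 1.34-fold and 1.32-fold (adjusted p = 0.00059 and 0.00041), the first with 7044, 6967 and 7036 on infested and 5221, 5078 and 5429 on uninfested arrays. DMAS1, which makes the iron-binding phytosiderophore deoxymugineic acid, rose by 0.38 on the log2 scale in 1 of 3 probe sets (1164, 1048 and 1117 against 887, 801 and 870.5; adjusted p = 0.014), a call lost with arrays centred on their median (adjusted p = 0.083), with 18S signal as a covariate (0.21) and without infested replicate 1 (0.054) or uninfested replicate 2 (0.06), while the other 2 had log2 changes of -0.08 and -0.02. APRT, adenine phosphoribosyltransferase of the purine salvage route, rose 1.22-fold (14055, 13974 and 13356 against 11349, 11565 and 11014; adjusted p = 0.00049), a call lost with 18S signal as a covariate (adjusted p = 0.064). The other purine gene, AdSS, adenylosuccinate synthetase of the route that makes new adenine nucleotides, fell 1.73-fold, with 2981, 2462 and 2599 on infested and 4710, 4289 and 4877 on uninfested arrays (log2 -0.79, SE 0.12, adjusted p = 2.6e-05). The groups did not overlap for either purine gene, as for 48.1% of all tested probe sets.

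Histone and chromatin genes gave 19 of the 31 named probe sets that fell, but only 6 of the 17 named genes that fell. All 20 tested probe sets of the list, from 6 genes, were called, 19 as falls and 1 as a rise. Of all tested probe sets 17.7% fell and 16.4% rose. The groups did not overlap for any of the 20, the infested arrays being wholly the lower for 24.7% of all tested probe sets. The median log2 change was -0.94. Many of these probe sets share sequence within a histone family, so they are not 20 separate measurements. Core histones H2A and H2B package DNA into nucleosomes, and their transcripts are abundant in cells that are copying DNA.

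**Figure D3:**
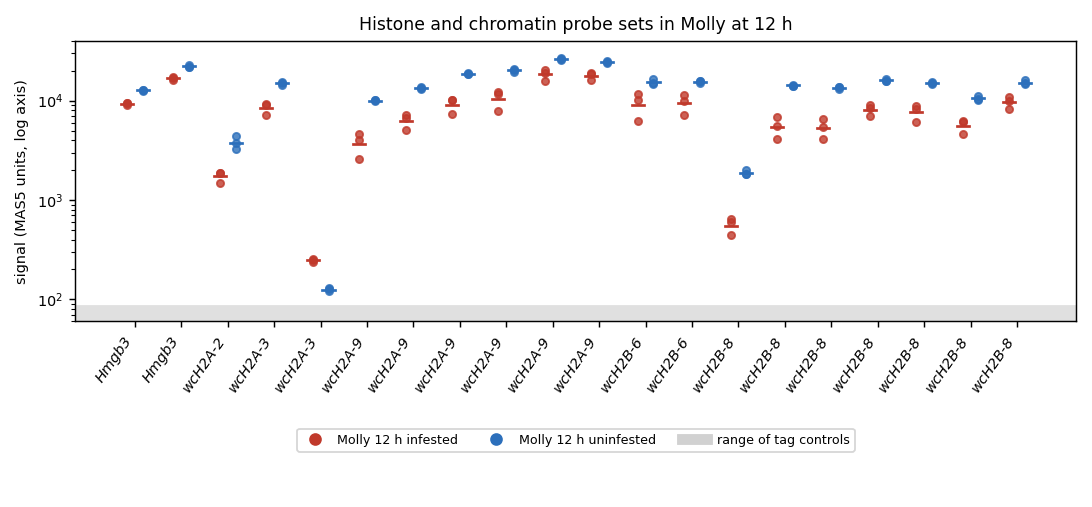
Signal (MAS5 units, log axis) of the 20 histone and chromatin probe sets in Molly at 12 h, with each point 1 array, bars the geometric mean of 3 arrays and grey the range of the tag controls. In 19 of the 20 columns the 3 infested arrays lie below the 3 uninfested arrays, and the dim probe set of wcH2A-3 lies the other way.

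The largest named fall was that of an H2B probe set, wcH2B-8, with 640.4, 439.9 and 599 on infested arrays and 1998, 1843 and 1812 on uninfested arrays, a 3.41-fold lower level (log2 -1.77, SE 0.35, adjusted p = 0.00042). The other 6 tested probe sets of wcH2B-8 were brighter and fell by 0.66 to 1.40 on the log2 scale. The H2A gene wcH2A-9 fell in all 6 of its probe sets, by 0.45 to 1.46 on the log2 scale. The most changed gave 4633, 2587 and 3968 on infested and 10029, 10084 and 9846 on uninfested arrays (2.76-fold lower, adjusted p = 0.0011). Uninfested arrays agreed closely with each other here while infested replicate 2 was the lowest. wcH2A-2 fell 2.18-fold, with 1859, 1481 and 1874 against 3733, 3258 and 4411 (adjusted p = 0.0021). wcH2B-6 fell 1.68-fold and 1.65-fold in its 2 probe sets (adjusted p = 0.007 and 0.0056). Hmgb3, a high mobility group protein that bends DNA in chromatin, fell 1.38-fold in one probe set (9453, 8973 and 9372 against 12515, 12883 and 12883; adjusted p = 0.0099) and 1.32-fold in the other (adjusted p = 0.025). The call of the other was lost with 18S signal as a covariate (adjusted p = 0.10) and without infested replicate 1 or 2 or uninfested replicate 2 or 3 (0.051 to 0.08). The 2 probe sets of wcH2A-3 went opposite ways. The bright one fell 1.79-fold, with 9167, 7080 and 8928 on infested and 15461, 14364 and 14898 on uninfested arrays (adjusted p = 0.0061). The dim one rose 1.98-fold, with 249, 239 and 256 against 129.7, 120.4 and 126 (adjusted p = 0.0016). Without infested replicate 2, which was the lowest infested array for all 20, 14 fell and the median was -0.77. With 18S signal as a covariate 14 fell, with a median of -1.04.

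The translation list held 8 tested probe sets, 4 that fell and 1 that rose, with a median of -0.25. Of all tested probe sets 17.7% fell and 16.4% rose. The subunit gene eIF-2-beta of the initiation factor that brings the first tRNA to the ribosome gave 5381, 4452 and 5325 on infested and 7764, 8154 and 7739 on uninfested arrays, a 1.57-fold fall (log2 -0.65, SE 0.08, adjusted p = 2.7e-06). The cap-binding factor gene eIF4E fell 1.35-fold (4511, 3983 and 3891 against 5458, 5571 and 5721; adjusted p = 9.2e-05). Eif4B fell by 0.26 on the log2 scale (adjusted p = 0.0047), a call lost with 18S signal as a covariate (adjusted p = 0.19). The elongation factor gene TEF1 fell 1.23-fold in 1 of 2 probe sets (adjusted p = 0.0011), the other having a log2 change of -0.08 (adjusted p = 0.42). NCBP, named for a cap-binding protein and in no list, fell 1.22-fold (4146, 3808 and 4210 against 4800, 5347 and 4685; adjusted p = 0.004), a call lost with 18S signal as a covariate (adjusted p = 0.058). The ribosomal protein gene RPS29 rose at least 5.03-fold in 1 of 2 probe sets, with 499, 384 and 409 on infested and 67.9, 82.2 and 60.7 on uninfested arrays (adjusted p = 2e-05). Its other probe set read 528, 477 and 257 against 385, 284 and 273, overlapped, and was not called (log2 change 0.37, adjusted p = 0.46).

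The tubulin and profilin list held 12 tested probe sets, 4 of which fell and 1 of which rose, with a median of -0.13. For all tested probe sets the shares were 17.7% and 16.4%. The falls in these subunits of microtubules were small, 1.18-fold for tubb3 (15493, 15468 and 14904 on infested and 18568, 18280 and 17393 on uninfested arrays; adjusted p = 0.002), 1.17-fold for the most changed probe set of Tubb5 (adjusted p = 0.0053) and 1.16-fold for tubb1 (adjusted p = 0.028). The count of falls depended on the scaling: it was 6 with arrays centred on their median and 1, beside 2 rises, under quantile normalization. It was also 1 with 18S signal as a covariate, and 2 with no filter on dim signals, with no trend in the variance prior or without infested replicate 3. The call of tubb1 was lost in 7 alternatives (adjusted p = 0.056 to 0.13), and that of the most changed Tubb5 probe set under quantile normalization (0.095) and with 18S signal as a covariate (0.054). The TUBA probe set that rose, for alpha-tubulin, gave 679, 622 and 429.7 on infested and 265, 142 and 224 on uninfested arrays (2.78-fold, adjusted p = 0.032). Leaving out infested replicate 1 or 2 or uninfested replicate 2 or 3 raised its adjusted p to between 0.058 and 0.13. The bright TUBA probe set did not follow, with 22341, 22100 and 22265 against 23336, 21715 and 20727 (log2 change 0.02, adjusted p = 0.86).

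PEAMT1, the phosphoethanolamine methyltransferase that makes choline for membranes, fell 2.09-fold. Its signals were 1843, 1939 and 2296 on infested arrays and 3660, 4563 and 4476 on uninfested arrays (log2 -1.06, SE 0.21, adjusted p = 0.00045). With 18S signal as a covariate its log2 change was -0.55 (adjusted p = 0.18). The other 3 methyl transfer probe sets, of the lignin methyltransferase COMT1 and of SAHH, which recycles the methyl donor, were bright and not called, with log2 changes of -0.09 to 0.00. COMT1 read 13110, 14879 and 12750 on infested and 14461, 14443 and 14345 on uninfested arrays.

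Photosynthesis and Calvin cycle genes changed little: 1 of 18 tested probe sets fell (17.7% of all tested probe sets did), with a median of 0.07. The probe sets of the photosystem II proteins PsbO and PsbP, the cytochrome complex protein petC and the Calvin cycle enzyme PRK had log2 changes of -0.05 to 0.24. The one that fell was a dim rbcl probe set, with 418, 285 and 397 on infested and 575, 611 and 656 on uninfested arrays (1.70-fold, adjusted p = 0.016), while the 2 bright rbcl probe sets had log2 changes of 0.05 and 0.07. That call was lost without infested replicate 2 or uninfested replicate 3 (adjusted p = 0.099 and 0.055) and with 18S signal as a covariate (0.18).

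Larger changes than any named one were found among probe sets with no gene name in the annotation. Of these, Ta.8230.2.S1_a_at rose at least 58.7-fold, with 4640, 6713 and 3989 on infested and 4.67, 14.2 and 0.662 on uninfested arrays (adjusted p = 4.4e-06). Ta.23763.1.S1_at rose at least 61.1-fold, with 4400, 4399 and 7228 on infested and 4.93, 37.7 and 4.48 on uninfested arrays (adjusted p = 7.1e-05). Without larvae both read within the range of the tag controls on every array. In the other direction Ta.408.1.A1_at fell at least 5.72-fold, with 5.92, 88.6 and 37.7 on infested and 312, 522 and 705 on uninfested arrays (adjusted p = 0.00032). Ta.16236.1.S1_at fell at least 4.83-fold, with 15.6, 8.97 and 87.8 against 355, 394 and 494 (adjusted p = 0.00015). It also fell in Newton at 12 h (log2 -3.65, limma adjusted p = 0.0015). A difference between the lines was not called for Ta.16236.1.S1_at or Ta.408.1.A1_at (limma adjusted p = 0.77 and 0.091). For Ta.8230.2.S1_a_at and Ta.23763.1.S1_at the change was higher in Molly (limma adjusted p = 0.0031 and 0.0036).

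How far the Molly response was shared by susceptible Newton at 12 h was tested as the difference between the 2 changes. Of 36707 probe sets 9201 differed between the lines (25.1%), 4190 with a higher (11.4%) and 5011 with a lower change in Molly (13.7%); with arrays centred on their median the higher made up 35.5% of 10246 in place of 45.5% of 9201. Of the 6024 rises in Molly 2978 (49.4%) were higher than the change in Newton and 25 were lower. Of the 6490 falls in Molly 3529 (54.4%) were lower than the change in Newton and 37 were higher. These shares use the same Molly arrays as the calls themselves. In Newton 6820 probe sets changed (18.6%), 3973 as rises (10.8%) and 2847 as falls (7.76%). The lines shared 1148 rises, 19.1% of those in Molly and 28.9% of those in Newton, and 733 falls, 11.3% and 25.7% of each line's falls. Of the 6024 rises in Molly 533 fell in Newton, where 7.76% of all tested probe sets fell. Of the 6490 falls in Molly 529 rose in Newton, where 10.8% of all tested probe sets rose.

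LTP3, in its brighter probe set, and GAPN responded in opposite directions in the lines. The brighter LTP3 probe set, which rose 2.69-fold in Molly, read 6293, 5163 and 4963 in infested and 10088, 9675 and 8965 in uninfested Newton, a fall (log2 -0.81, adjusted p = 0.002). The difference between the lines was 2.24 (SE 0.24, adjusted p = 2.6e-06). Uninfested Newton stood above uninfested Molly for this probe set. The dimmer LTP3 probe set was not called in Newton, and the lines differed by 2.32 there (adjusted p = 0.00035). GAPN likewise rose in Molly and fell in Newton, where it read 115, 111 and 78.0 on infested and 213, 241 and 186 on uninfested arrays. The difference between the lines was 2.41 (SE 0.41, adjusted p = 0.00021). Uninfested Newton stood above uninfested Molly for GAPN too, and overlapped infested Molly. The 6-FEH probe set that rose in Molly read 26.7, 8.77 and 24.9 in infested and 70.3, 59.0 and 61.6 in uninfested Newton, all within the tag range. A fall in Newton cannot be read from such signals, and the size of the fitted difference of 3.14 (adjusted p = 0.0012) is uncertain.

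Other rises in Molly had no called counterpart in Newton and differed from it. WZF1 read 201, 266 and 85.2 in infested and 204, 137 and 162 in uninfested Newton, with overlap, and the lines differed by 3.49 on the log2 scale (SE 0.55, adjusted p = 0.00011). The most changed XIP-I probe set read 1988, 2191 and 921 in infested and 535, 1081 and 488 in uninfested Newton. That change was not called (log2 1.28, adjusted p = 0.098), and the lines differed by 3.85 (SE 0.74, adjusted p = 0.00068). For this XIP-I probe set uninfested Newton stood above uninfested Molly. GA20ox1d stayed within the tag range on every 12 h Newton array, with 40.6, 10.7 and 14.8 infested and 9.50, 17.3 and 53.9 uninfested, and the lines differed by 3.83 (SE 0.97, adjusted p = 0.0058). GSTZ1, by contrast, rose in both lines in its most changed probe set, by 2.51 in Molly and 1.07 in Newton, and the difference of 1.44 was called (adjusted p = 0.016). Its dimmest probe set rose alike in the lines, by 1.32 in Molly and 1.35 in Newton, with a difference of -0.02 (adjusted p = 0.98). The uninfested geometric means of that probe set lay within the tag range in both lines.

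Among the named falls, those of AdSS, of 3 initiation factors, of TEF1 and of a Tubb5 probe set differed from Newton. AdSS read 3492, 3959 and 3746 in infested and 3988, 3373 and 4110 in uninfested Newton, and the change in Molly was lower by 0.76 on the log2 scale (SE 0.17, adjusted p = 0.002). For eIF-2-beta the change in Molly was lower by 0.56 (adjusted p = 0.00081), for Eif4B by 0.42 (adjusted p = 0.0031) and for eIF4E by 0.37 (adjusted p = 0.011). It was lower by 0.33 for the most changed Tubb5 probe set (adjusted p = 0.0077) and by 0.26 for TEF1 (adjusted p = 0.041). FKBP70 rose in Newton (log2 0.54, adjusted p = 0.011), with 10454, 12837 and 6849 on infested and 6673, 6481 and 6958 on uninfested arrays, so the groups overlapped. The change in Molly was lower than that in Newton by 0.78 (adjusted p = 0.0061). Of 20 histone and chromatin probe sets 2 fell in Newton, both of wcH2B-6, where 7.76% of all tested probe sets fell. The median over the 20 was -0.52. The difference between the lines was called for 1 of them, the dim one of wcH2A-3 (1.07, adjusted p = 0.016), and for 25.1% of all tested probe sets. The control for 18S ribosomal RNA averaged 2444 in infested and 6581 in uninfested Newton.

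COMT1 and the beta-amylase gene BMY1, the second named after its values were seen, changed in Newton and not in Molly. BMY1 read 517, 703 and 537 in infested and 646, 438 and 378 in uninfested Molly, with overlap (adjusted p = 0.34). In Newton it read 378, 287 and 322 on infested and 755, 722 and 743 on uninfested arrays (log2 -1.18, adjusted p = 0.00075), and the lines differed by 1.47 (SE 0.31, adjusted p = 0.0014). COMT1 read 11033, 13096 and 9291 on infested and 16806, 16684 and 16520 on uninfested Newton arrays (log2 -0.60, adjusted p = 8.2e-05), and the lines differed by 0.51 (adjusted p = 0.0046).

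**Figure D4:**
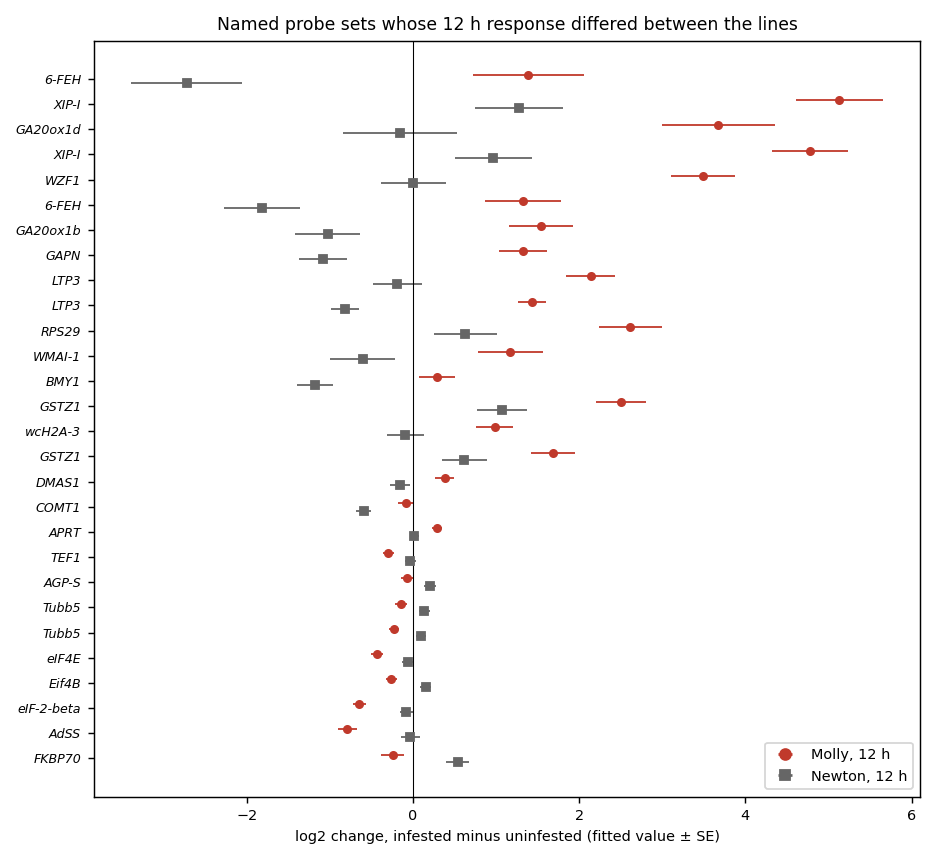
Fitted log2 change, infested minus uninfested at 12 h, in Molly (circles) and Newton (squares), with bars of 1 SE, for the 28 named probe sets whose change differed between the lines. Genes at the top, such as 6-FEH, XIP-I, GA20ox1d and WZF1, have the higher change in Molly, and AdSS and FKBP70 at the bottom the lower.

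Infested Molly arrays at 6, 12 and 24 h were also compared directly, without the uninfested arrays. Plant age and time of day differ between these times and are part of each difference. Between 12 h and 6 h 1851 probe sets differed (5.04%), with 1027 higher (2.8%) and 824 lower (2.24%) at 12 h. Between 24 h and 12 h 6110 differed (16.6%), with 3154 higher (8.59%) and 2956 lower (8.05%) at 24 h. Of the 6024 rises at 12 h 1761 (29.2%) were lower at 24 h than at 12 h and 145 were higher, and of the 6490 falls 2082 (32.1%) were higher at 24 h and 85 were lower. The 12 h infested arrays enter both sides of these counts.

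Histone and chromatin signals were lower at 6 h than at 12 h in 3 of 20 probe sets, as were 2.8% of all tested probe sets. They were higher at 24 h than at 12 h in 5 of 20, as were 8.59% of all tested probe sets. Hmgb3 had 6207, 6007 and 6153 at 6 h, 9453, 8973 and 9372 at 12 h and 7409, 8388 and 9304 at 24 h in infested Molly, with 12 h higher than 6 h by 0.60 on the log2 scale (adjusted p = 0.01). wcH2B-8 was higher at 12 h than at 6 h by 0.57 in one probe set (adjusted p = 0.044) and higher at 24 h than at 12 h by 1.05 in another (adjusted p = 0.041). Against the same 3 uninfested arrays, the most changed wcH2B-8 probe set had log2 changes of -2.01 at 6 h, -1.77 at 12 h and -0.72 at 24 h. FKBP70 was lower at 12 h than at 6 h by 0.76 (adjusted p = 0.0021). Its log2 change against those arrays was 0.52 at 6 h (adjusted p = 0.0061) and -0.25 at 12 h. TaGlu1a was higher at 12 h than at 6 h by 0.34 (adjusted p = 0.022), AGA.1 by 0.50 (adjusted p = 0.03), and Eif4B was lower by 0.24 (adjusted p = 0.049).

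One of 2 XIP-I probe sets, and WZF1, were lower at 24 h than at 12 h. The XIP-I probe set fell by 1.48 on the log2 scale (SE 0.46, adjusted p = 0.033), while the difference of -1.52 in the other was not called (adjusted p = 0.052). In the first the 24 h arrays were widely spread, at 7478, 3202 and 1682 against 9597, 10921 and 8256 at 12 h. WZF1 was lower by 1.16 (adjusted p = 0.045), with 834, 539.5 and 487 at 24 h against 1354, 1594 and 1131 at 12 h. AGA.1 was lower at 24 h by 0.70 (adjusted p = 0.00089), TaPrx1 by 0.60 (adjusted p = 0.012) and the dim probe set of TSA by 0.94 (adjusted p = 0.036). TUBA was higher at 24 h than at 12 h by 1.89 (adjusted p = 0.015) in its dim probe set, CAT1 by 1.51 (adjusted p = 0.0015), GAPN by 1.45 (adjusted p = 0.0014) and PEAMT1 by 0.70 (adjusted p = 0.025).

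**Figure D5:**
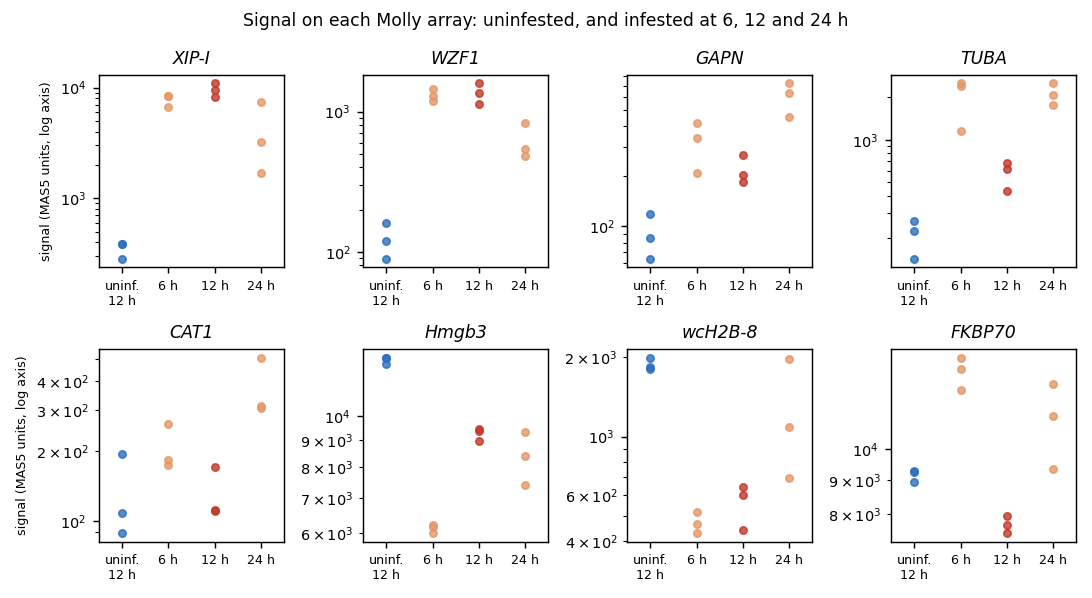
Signal (MAS5 units, log axes that differ by panel) on each Molly array for 8 genes, from left to right uninfested at 12 h and infested at 6, 12 and 24 h, 3 points per group. WZF1 is higher on every 6 and 12 h array than on any 24 h array, CAT1 and GAPN are highest at 24 h, and Hmgb3 has its lowest points at 6 h.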

How the data were processed

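Per the submitters' processing notes the authors ran MAS5, which gave 1 linear intensity for each probe set. Its version and settings were not given in the sources used here. On all arrays the mean signal trimmed at percentiles 2 and 98 was equal, and no pair of arrays held identical values. After 111 control probe sets were set aside, the 40% dimmest of 61179 wheat probe sets by mean log2 intensity were left out (limit 44.8). Log2 intensity of the remaining 36707 was modelled over 24 arrays in limma 3.58.1 (R 4.3.3), with 1 mean per group and an intensity trend in the variance prior (16 residual and 4.49 prior degrees of freedom), and tested two-sided with Benjamini-Hochberg adjustment at 0.05. The scripts were tested on simulated data. The number of arrays limits the precision. Gene names came from the array annotation and RefSeq synonyms; genomic positions and sequences were not used here. The naming rule took up to 14 genes per direction by log2 change, with separated groups and a brighter group over the median signal of 308, up to 2 per list and direction, and up to 5 per direction for the other comparisons. Members, lists and rule were chosen with earlier results of these data known. Replicate numbers did not pair the arrays: deviations of same-numbered arrays correlated at -0.02 to 0.03. Alternatives covered scaling, filter, offset, variance prior, replicate number, 18S signal and single arrays.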

Additional observations from a re-analysis of the deposited data

Results flagged for a closer look

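For 28 named probe sets the 12 h response, infested minus uninfested on the log2 scale, differed between Molly and Newton by limma's test of the difference (adjusted p under 0.05; 25.1% of all tested probe sets did so). The Molly response was the higher for 6-FEH by 4.11 and 3.14 in 2 probe sets, XIP-I by 3.85 and 3.81, GA20ox1d by 3.83, WZF1 by 3.49, GA20ox1b by 2.57, GAPN by 2.41, LTP3 by 2.32 and 2.24, RPS29 by 1.99, WMAI-1 by 1.78, BMY1 by 1.47, GSTZ1 by 1.44 and 1.07, wcH2A-3 by 1.07, DMAS1 by 0.54, COMT1 by 0.51 and APRT by 0.27. It was the lower, with differences of -0.26 for TEF1, -0.28 for AGP-S, -0.28 and -0.33 for Tubb5, -0.37 for eIF4E, -0.42 for Eif4B, -0.56 for eIF-2-beta, -0.76 for AdSS and -0.78 for FKBP70. Signals of 6-FEH, GA20ox1d, GA20ox1b, RPS29 and WMAI-1 lay within the range of the tag controls in at least 1 of the 4 groups, so the sizes of these fitted differences are uncertain. The dimmest tested probe set of GSTZ1 did not differ between the lines (-0.02, limma adjusted p = 0.98).

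Times differed directly in infested Molly for 16 results named by the rule. At 12 h the signal was higher than at 6 h for Hmgb3 (0.60), wcH2B-8 (0.57), AGA.1 (0.50) and TaGlu1a (0.34), and lower for FKBP70 (-0.76) and Eif4B (-0.24). At 24 h it was higher than at 12 h for TUBA (1.89), CAT1 (1.51), GAPN (1.45), wcH2B-8 (1.05) and PEAMT1 (0.70), and lower for XIP-I (-1.48), WZF1 (-1.16), TSA (-0.94), AGA.1 (-0.70) and TaPrx1 (-0.60). Plant age and time of day cannot be told apart from time since hatching in these differences.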

How the results depend on the processing

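The count of calls in Molly at 12 h stayed within 1.5 times of 12514 under every alternative run except 18S signal as a covariate (6833); it lay between 10104 and 11291 without single arrays, and was 13462 with arrays centred on their median, 12568 with quantile normalization and 11131 with the 60% dimmest left out. The difference between the lines (9201) lay between 7495 and 8943 without single arrays. The 12 h against 6 h difference (1851) lay between 915 and 1516 without single arrays, 915 being without Molly 12 h replicate 3, 1190 without Molly 6 h replicate 2 and 1230 without its replicate 3. The 24 h against 12 h difference (6110) was 4005 with 18S signal as a covariate, 4043 when the fit held only the arrays compared, and lay between 3706 and 6912 without single arrays, 3706 being without Molly 24 h replicate 3. With the replicate number as a block the 4 counts were 12214, 8839, 1751 and 5812. The cause of these differences was not tested. Of the 132 named probe sets 55 were called, and 0 of these 55 changed sign. The call held for 32 of them in every alternative that tested them; GA20ox1d, 1 of the 32, was not tested with the 60% dimmest left out. With 18S signal as a covariate 18 of the 55 calls were lost, in a fit that cannot tell 18S signal and infestation apart. Signals within the range of the tag controls limit every change given as "at least".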
